A study of Mus musculus with 16 samples.

Results

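The comparison described here is between CD8+ T cells from libraries labelled as accepted kidney grafts and from libraries labelled as recipient spleen, 24 weeks after transplantation. Kidneys of DBA/2J mice had been transplanted into male wild-type C57BL/6J (B6) recipients, which do not reject this graft, and both labels come from recipients that kept the graft, so no untreated or rejecting animal enters the comparison. Viable CD45+ cells were sorted from collagenase-perfused and digested kidney or from mechanically ground spleen after lysis of red cells, and droplet scRNA-seq tagged each captured mRNA with a unique molecular identifier (UMI). Cells that the authors had called CD8+ T cells were kept when they held at least 1 UMI of Cd8a or Cd8b1, the chains of the CD8 coreceptor, and no UMI of Cd4, Cd79a, or Lyz2, which mark CD4 T cells, B cells, and myeloid cells. This gate left 1722 of 4033 cells (42.7%) under the kidney label and 3999 of 4538 cells (88.1%) under the spleen label, and thus 5721 of the 72639 cells in all deposited CD8 matrices of the series. Each label holds 3 library tags, which were taken as 3 mice. The kidney-labelled libraries kept 506, 597, and 619 cells and the spleen-labelled libraries 1523, 1175, and 1301 cells. Cells of the donor and the recipient strain were not told apart.

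Naive CD8+ T cells circulate between blood and lymphoid organs. They enter lymph nodes through the chemokine receptor Ccr7 and leave through S1pr1, and the transcription factors Lef1, Tcf7, and Klf2 maintain this state. After meeting antigen, CD8+ T cells shut down much of this program and make granzymes, chemokines, and interferon gamma, and those that settle in a tissue carry retention molecules such as the integrins Itgae and Itga1 and the receptor Cxcr6. Under lasting antigen exposure they raise inhibitory receptors such as PD-1, encoded by Pdcd1, and the transcription factor Tox, a state called exhaustion.

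RNA of kidney tissue ran against the labels. Of 20 listed genes of kidney tubules and collecting ducts, 19 were in both 24-week tables, and their UMIs in the gated cells summed to 6 in the kidney-labelled libraries and 81 in the spleen-labelled libraries. Per library this was 0.404, 1.08, and 0.520 CPM (UMIs scaled to a total of 1e+06 gated UMIs per library) under the kidney label and 7.26, 7.61, and 6.56 CPM under the spleen label, a mean 10.7 times higher under the spleen label. The libraries did not overlap, and over all cells of the matrices the ratio was 13.3. In the CD8 matrices of 3 weeks, gated in the same way, the listed genes stood at 8.51 to 14.6 CPM in 5 kidney libraries and 0 to 1.72 CPM in 5 spleen libraries, and at 1 week at 1.28 to 6.68 CPM in 3 kidney libraries and 1.02 to 1.43 CPM in 3 spleen libraries. These spleen tables hold only 7 (3 weeks) and 6 (1 week) of the 19 genes. Over the 6 genes that all tables hold, a sum added after seeing the data, the values were 0.404 to 1.08 CPM under the kidney label and 3.15 to 4.96 CPM under the spleen label at 24 weeks (ratio 6.03), 5.38 to 9.45 and 0 to 1.72 CPM at 3 weeks, and 1.00 to 4.96 and 1.02 to 1.43 CPM at 1 week, where the tissues overlapped. Gpx3, a secreted peroxidase of the proximal tubule, had 0 UMIs under the 24-week kidney label and 18 UMIs under the spleen label, at least 4.80-fold higher against a floor of 3 UMIs over the kidney-labelled libraries. Of the 19 genes, 14 were higher under the spleen label, 0 were higher under the kidney label, and 5 (Kap, Slc12a1, Lrp2, Cdh16, and Cyp2e1) had no UMI under either. The libraries are therefore named below by their labels only, and every direction given is that of the labels. The files used here do not show whether the 24-week labels were exchanged, and every direction between graft and spleen at 24 weeks would turn if they were. All cell barcodes of the 3 kidney-labelled libraries were also in the 24-week table of CD45+ cells labelled kidney, where they were 1224 of 7631, 1441 of 7281, and 1368 of 5976 barcodes, so both kidney-labelled tables hold the same cells. A CD45+ table of spleen at 24 weeks was not used here, and the tissue itself was not tested further.

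**Figure D1:**
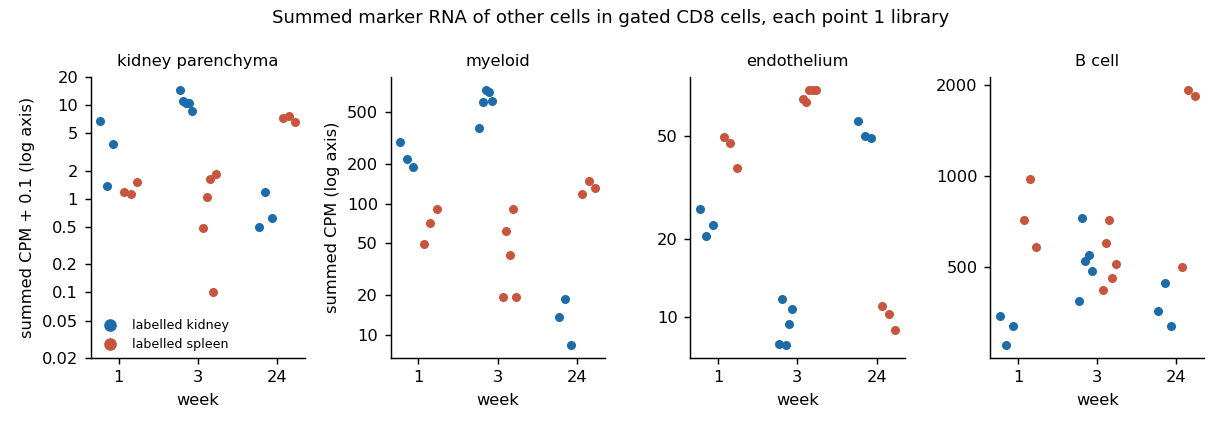
Summed RNA of marker lists of other cells in the gated CD8 cells, in CPM on a log axis (0.1 was added for kidney parenchyma), at 1, 3, and 24 weeks after transplantation. Each point is 1 library (3, 5, and 3 for each label). At 24 weeks the spleen-labelled libraries hold 6.56 to 7.61 CPM of parenchyma RNA and the kidney-labelled libraries 0.404 to 1.08 CPM, the reverse of the order at 3 weeks, when the spleen tables hold 7 of the 19 parenchyma genes (6 at 1 week).

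Other measures of the libraries also differed between the labels. The gated cells held 2477816 to 3846717 UMIs in a kidney-labelled library and 3023024 to 4546990 UMIs in a spleen-labelled library, with medians of 4443 to 6069 and 2398 to 2735 UMIs per cell. Ribosomal protein genes took 42.4% to 44.0% of these UMIs under the kidney label and 28.9% to 30.9% under the spleen label, and mitochondrial genes 5.18% to 5.36% and 3.47% to 3.76%. A Cd4 UMI was present in 20.3% to 24.3% of all cells of a kidney-labelled library, before the gate, and in 1.30% to 2.07% of a spleen-labelled library. Barcodes shared between any pair of the 6 libraries numbered 0 to 2. The study's methods give each mouse as a separate sample and 3 mice at 24 weeks, which is the number of tags, and p-values measure the spread between these libraries. Since the values are sums over cells, fewer cells of a type and less RNA per cell cannot be told apart.

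The question of the comparison is how CD8+ T cells of the accepted graft differ from those of the recipient's spleen late after transplantation. UMIs were summed over the gated cells of each library and scaled by the library total. The 9623 of 18039 shared genes that passed a filter on low counts were tested by the quasi-likelihood method of edgeR, and a gene was called where its p, adjusted by Benjamini and Hochberg's method, was at most 0.05. Of the genes tested, 1345 (14.0%) were higher under the kidney label and 3865 (40.2%) were higher under the spleen label, so that 54.1% were called. These shares are the background for the counts of list members over all gated cells below. The 3 values of each label did not overlap for 60.3% of the genes, 16.5% with the kidney label higher and 43.8% with the spleen label higher. The median log2 fold change of all tested genes was −0.26 (kidney label minus spleen label), so genes near this value did not stand apart from the bulk. With TMM scaling, which centers the bulk of genes near 0 (median 0.0065), 50.5% were called, with 2330 genes (24.2%) higher under the kidney label and 2528 (26.3%) higher under the spleen label. When genes of ribosomal proteins, mitochondria, antibodies, and T cell receptors were left out, 2852 were higher under the kidney label and 2042 under the spleen label. The part of the ribosomal protein share in this shift was not tested otherwise. Of the called list members, Ets1, Cd3d, Jund, Hsp90ab1, and Hspa8 lost their call under both other scalings, with Cd3d changing sign, and Ier2 and Vim lost it under the latter. Cd3d was also not called without kidney-labelled library 3 or spleen-labelled library 2 or 3, and Jund without kidney-labelled library 3 (edgeR adjusted p = 0.052 to 0.074).

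Genes of naive and circulating T cells were higher under the kidney label. Of 15 such genes tested, 14 were higher there and 1, Ets1, was higher under the spleen label, with a list median log2 fold change of 3.25 against −0.26 over all genes. Igfbp4, Ccr9, and Il6ra passed the filter through the kidney label alone and had to differ. Lef1, a transcription factor that keeps T cells naive, was at 504, 510.0, and 532 CPM in the kidney-labelled libraries and 11.9, 15.2, and 17.8 CPM in the spleen-labelled libraries. All 3 kidney-labelled libraries lay far above all spleen-labelled ones (34.4-fold by means, log2 fold change 5.11 ± 0.13 SE, edgeR adjusted p = 8.1e-16). Tcf7, its partner factor, was at 335, 364, and 310.1 CPM in the kidney-labelled libraries and 47.9, 59.9, and 60.3 CPM in the spleen-labelled libraries (log2 fold change 2.59 ± 0.11 SE, edgeR adjusted p = 1e-12). Klf2, the factor that drives expression of the exit receptor S1pr1, was at 916, 912, and 858 CPM in the kidney-labelled libraries and 154, 156, and 131 CPM in the spleen-labelled libraries (log2 fold change 2.61 ± 0.09 SE, edgeR adjusted p = 1e-13), and S1pr1 itself was at 211, 196, and 212 CPM in the kidney-labelled libraries and 16.1, 23.5, and 12.1 CPM in the spleen-labelled libraries (log2 fold change 3.61 ± 0.15 SE, edgeR adjusted p = 8.1e-13). Neither gene overlapped between the labels. Ccr7, the receptor for lymph node entry, was at 170.3, 201, and 186 CPM in the kidney-labelled libraries and 23.8, 20.8, and 8.13 CPM in the spleen-labelled libraries (10.6-fold, log2 fold change 3.39 ± 0.20 SE, edgeR adjusted p = 9e-11), with spleen-labelled library 3 the lowest. Dapl1, a gene typical of quiescent naive T cells, was at 439.5, 412, and 458 CPM in the kidney-labelled libraries and 8.80, 7.28, and 7.34 CPM in the spleen-labelled libraries and differed by 55.9-fold (log2 fold change 5.78 ± 0.13 SE, edgeR adjusted p = 3.2e-16). Il7r, the receptor for the survival cytokine IL-7, differed less, with 371, 410.2, and 434 CPM in the kidney-labelled libraries and 205, 243, and 248 CPM in the spleen-labelled libraries (log2 fold change 0.81 ± 0.10 SE, edgeR adjusted p = 1.2e-06). Ets1 was at 419 ± 29.7 and 571 ± 48.9 CPM (mean ± SD, n = 3 each), a log2 difference of −0.45, and was not called under TMM scaling.

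As Lef1 and Pdcd1 are defining genes of the naive state and of inhibition, the 250 bases before their start sites are shown from RefSeq (GRCm38.p6), in lower case, 5′ to 3′ along the gene. The capitals in Lef1 mark CTTTG or its reverse complement, the core of the sites that Lef1 and Tcf7 bind, which occurs in 48.6% of 32851 promoter windows of this length. Those in Pdcd1 mark GGAAA or its reverse complement, the core of the sites of NFAT, a factor activated by the T cell receptor, which occurs in 55.6% of the windows. The window of Lef1 is chr3:131110047-131110296, plus strand, the first of 4 start sites listed, and that of Pdcd1 is chr1:94052554-94052803, minus strand.
Lef1: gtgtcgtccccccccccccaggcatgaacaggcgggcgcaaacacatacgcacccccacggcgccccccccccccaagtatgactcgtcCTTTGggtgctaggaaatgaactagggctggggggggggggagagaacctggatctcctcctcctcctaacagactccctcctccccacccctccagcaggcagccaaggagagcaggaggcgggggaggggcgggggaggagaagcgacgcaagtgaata
Pdcd1: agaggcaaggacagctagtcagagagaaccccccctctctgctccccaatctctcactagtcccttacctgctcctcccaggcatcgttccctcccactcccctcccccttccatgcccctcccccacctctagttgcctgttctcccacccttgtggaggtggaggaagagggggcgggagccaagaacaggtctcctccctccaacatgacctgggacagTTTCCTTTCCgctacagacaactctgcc
The Lef1 window held 1 match, starting 161 bases before the start site, and the Pdcd1 window held 2 matches, at 28 and 23 bases. The motifs do not overlap each other, both are frequent in all promoters, and a match is a match of letters only.

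Genes were also named by the size of their difference. Among called genes of at least 100 CPM in the higher label whose libraries did not overlap, the 12 with the largest fold change toward the kidney label included, besides Lef1, Dapl1, Ccr7, S1pr1, and Klf3, the genes Igfbp4, Ms4a4c, Cmah, Satb1, Rflnb, Slamf6, and Rasgrp2. Igfbp4, which encodes a binding protein of insulin-like growth factors and is abundant in naive T cells, was at 96.9, 125, and 113 CPM in the kidney-labelled libraries and 1.98, 0.992, and 0.525 CPM in the spleen-labelled libraries (log2 fold change 6.47 ± 0.23 SE, edgeR adjusted p = 8.3e-14). Satb1, a chromatin organizer of the T cell lineage, was at 302, 314, and 325 CPM in the kidney-labelled libraries and 43.1, 18.9, and 28.3 CPM in the spleen-labelled libraries (log2 fold change 3.34 ± 0.17 SE, edgeR adjusted p = 1.1e-11). Slamf6, a receptor of the SLAM family found on progenitor-like and naive CD8+ T cells, was at 106, 114, and 131 CPM in the kidney-labelled libraries and 14.1, 19.2, and 12.3 CPM in the spleen-labelled libraries (log2 fold change 2.97 ± 0.14 SE, edgeR adjusted p = 5.5e-12). Toward the spleen label the 12 genes were Ier5l, Hspa1a, Sema6d, Pdcd1, Gzmb, Fgl2, Ccl4, S100a4, Litaf, Hist1h2bc, Ccl3, and Itga1. Among them, Ier5l, Hspa1a, Sema6d, Pdcd1, Gzmb, Fgl2, Litaf, Ccl3, and Itga1 passed the filter through the spleen label alone and had to differ. Igfbp4 passed it through the kidney label alone and likewise had to differ. Ier5l, a relative of immediate early genes, was at 643, 529, and 564 CPM in the spleen-labelled libraries and 0.404, 2.15, and 0.26 CPM in the kidney-labelled libraries (log2 fold change −9.30 ± 0.23 SE, edgeR adjusted p = 8.1e-16). Sema6d, a semaphorin, had only 3 UMIs under the kidney label and 1331 under the spleen label, a ratio of 355 times (95% interval 121 to 1724), where this and the following intervals cover counting error only. Litaf, a regulator of lysosomal sorting, was at 176 ± 23.6 against 2.20 ± 0.809 CPM (mean ± SD, n = 3 each). Hist1h2bc, a histone gene, varied most among the spleen-labelled libraries, with 589, 229.9, and 116 CPM against 4.84, 3.23, and 4.42 CPM under the kidney label.

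**Figure D2:**
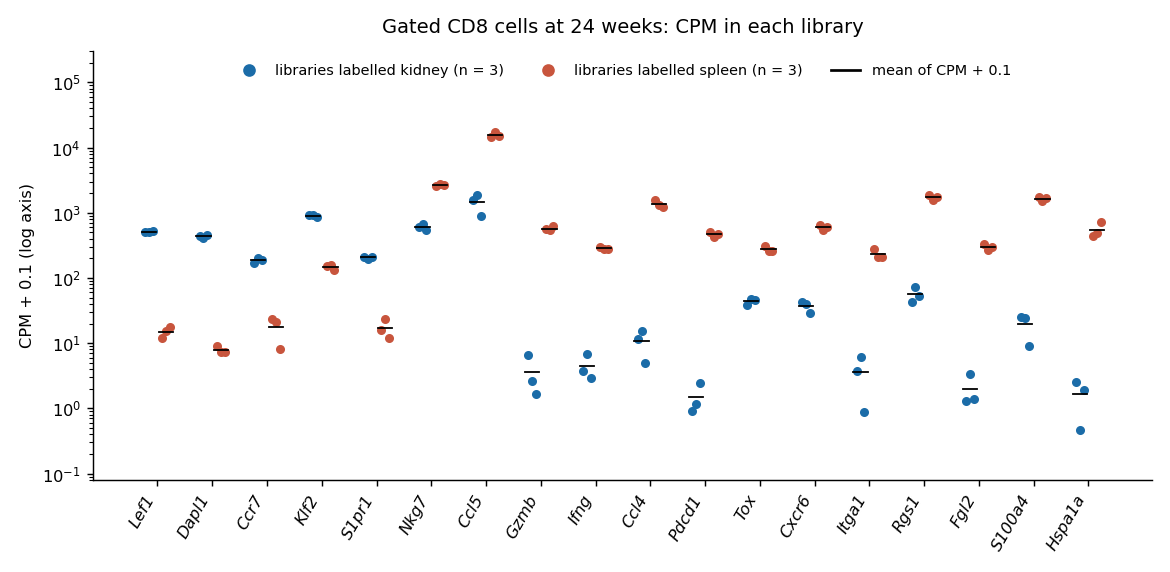
CPM of 18 genes in the gated CD8 cells of each 24-week library, on a log axis with 0.1 added, with 3 points and the mean for each label. The 5 naive genes at the left are higher in all kidney-labelled libraries, and the other 13 genes, from Nkg7 to Hspa1a, are higher in all spleen-labelled libraries.

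Granule genes were higher under the spleen label. Of 13 tested, 11 were higher there, 1 was higher under the kidney label, and 1 was not called, with a median log2 fold change of −2.12. Gzmb, the granule protease granzyme B, was at 562, 537, and 619.6 CPM in the spleen-labelled libraries and 6.46, 2.51, and 1.56 CPM in the kidney-labelled libraries (163-fold, log2 fold change −7.46 ± 0.21 SE, edgeR adjusted p = 3.3e-15). Nkg7, a granule membrane protein, was abundant under both labels, with 2552, 2744, and 2693 CPM in the spleen-labelled libraries and 604, 680.4, and 549 CPM in the kidney-labelled libraries (log2 fold change −2.12 ± 0.09 SE, edgeR adjusted p = 5.5e-13). Gzma, granzyme A, was at 543, 519.7, and 328 CPM in the spleen-labelled libraries and 33.1, 14.0, and 11.4 CPM in the kidney-labelled libraries, the lowest spleen-labelled value again lying above every kidney-labelled value (log2 fold change −4.64 ± 0.25 SE, edgeR adjusted p = 3e-11). Fasl, the ligand that triggers death through Fas, was at 272, 207, and 200.4 CPM in the spleen-labelled libraries and 3.23, 8.61, and 3.64 CPM in the kidney-labelled libraries (log2 fold change −5.48 ± 0.21 SE, edgeR adjusted p = 3.2e-13). Prf1, the pore former perforin, differed least among these, with 97.9, 80.4, and 99.2 CPM in the spleen-labelled libraries and 30.7, 38.8, and 55.9 CPM in the kidney-labelled libraries (log2 fold change −1.12 ± 0.16 SE, edgeR adjusted p = 8e-06). The exception was Gzmm, granzyme M, at 13.3, 10.8, and 7.54 CPM in the kidney-labelled libraries and 1.10, 1.32, and 1.05 CPM in the spleen-labelled libraries (log2 fold change 3.12 ± 0.35 SE, edgeR adjusted p = 5.7e-07). Gzmm passed the filter through the kidney label alone, and Gzmb and Gzmk through the spleen label alone, so they had to differ.

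Secreted signals were mostly higher under the spleen label. Of 11 listed, 10 were tested, 8 were higher under the spleen label and 2 under the kidney label, and the median log2 fold change was −4.39. Ifng, Tnf, Ccl3, and Csf1 passed the filter through the spleen label alone and had to differ, so count and median are a description. Ccl4, an inflammatory chemokine, was at 1581, 1309, and 1233 CPM in the spleen-labelled libraries and 11.3, 15.4, and 4.94 CPM in the kidney-labelled libraries (130.2-fold, log2 fold change −7.09 ± 0.21 SE, edgeR adjusted p = 6.4e-15). Xcl1, which attracts cross-presenting dendritic cells, was at 1325, 1235, and 1394 CPM in the spleen-labelled libraries and 33.5, 49.5, and 16.6 CPM in the kidney-labelled libraries (log2 fold change −5.35 ± 0.22 SE, edgeR adjusted p = 5.5e-13). For Ifng, which encodes interferon gamma, the values were 301, 278, and 274 CPM under the spleen label and 3.63, 6.82, and 2.86 CPM under the kidney label, without overlap (log2 fold change −6.04 ± 0.17 SE, edgeR adjusted p = 5.7e-15). Ccl5, a chemokine kept ready in memory T cells, took 14599, 17156, and 15201 CPM and 1582, 1863, and 905 CPM under these labels (log2 fold change −3.43 ± 0.17 SE, edgeR adjusted p = 9.4e-12). Csf1, a growth factor of macrophages, had 1 UMI under the kidney label and 303 UMIs under the spleen label, a ratio of 243 times (95% interval 43.2 to 9611). It passed the filter through the spleen label alone. Il10, an anti-inflammatory cytokine, was left out by the filter and had 1 and 52 UMIs, a ratio of 41.6 times (95% interval 7.15 to 1675). The genes higher under the kidney label were Ltb, a lymphotoxin chain, at 824 ± 17.6 against 529 ± 95.5 CPM, and Il16, at 87.1 ± 9.14 against 48.7 ± 5.21 CPM (mean ± SD, n = 3 each).

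Inhibitory receptors showed the lowest list median, −5.47 on the log2 scale. Of 10 tested, 9 were higher under the spleen label and 1, Btla, was higher under the kidney label. Pdcd1, Lag3, Havcr2, Tigit, Cd244a, and Entpd1 held few UMIs under the kidney label and passed the filter through the spleen label alone. Such genes had to differ, so the count and the median are a description of these 10 genes. Pdcd1 was at 501, 425, and 474 CPM in the spleen-labelled libraries and 0.807, 1.08, and 2.34 CPM in the kidney-labelled libraries (331-fold, log2 fold change −8.22 ± 0.19 SE, edgeR adjusted p = 3.4e-16). The 3 kidney-labelled libraries together held 14 UMIs of it and the 3 spleen-labelled libraries 5369 UMIs. With 14 UMIs under 1 label, the SE of Pdcd1 can be too small. Lag3, which binds MHC class II, was at 76.1, 89.0, and 83.4 CPM in the spleen-labelled libraries and 0, 3.23, and 1.56 CPM in the kidney-labelled libraries (log2 fold change −5.62 ± 0.27 SE, edgeR adjusted p = 4.8e-12). Ctla4, which competes for costimulation, was at 187, 143, and 148 CPM in the spleen-labelled libraries and 6.86, 10.8, and 11.7 CPM in the kidney-labelled libraries (log2 fold change −3.99 ± 0.16 SE, edgeR adjusted p = 6.6e-13). Havcr2, encoding Tim-3, and Tigit, a receptor for nectin-like ligands, each had 1 UMI under the kidney label, against 288 and 268 UMIs under the spleen label, ratios of 231 times (95% interval 41.0 to 9137) and 215 times (95% interval 38.2 to 8504). Cd244a, a receptor of the SLAM family, had 2 and 928 UMIs, a ratio of 371 times (95% interval 103 to 3071). Cd160 was present under both labels, at 181, 179.6, and 186 CPM in the spleen-labelled libraries and 33.9, 31.9, and 21.1 CPM in the kidney-labelled libraries (log2 fold change −2.68 ± 0.13 SE, edgeR adjusted p = 8.7e-12). Btla, the receptor of the herpesvirus entry mediator, was at 11.3, 10.8, and 13.8 CPM in the kidney-labelled libraries and 6.16, 9.92, and 6.82 CPM in the spleen-labelled libraries (log2 fold change 0.70 ± 0.23 SE, edgeR adjusted p = 0.016), and this call was lost without kidney-labelled library 3 (adjusted p = 0.099), without spleen-labelled library 1 (0.074), and without spleen-labelled library 3 (0.053).

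Transcription factors of stimulated and effector cells were likewise higher under the spleen label. Among 10 factors linked to exhaustion, 9 were higher there and Eomes was not called. Among 10 factors of effector and resident cells, all 10 were higher there, with a median log2 fold change of −3.16. Prdm1, Ahr, and Zfp683 of these, and Irf4 of the former list, passed the filter through the spleen label alone and had to differ. Both counts and the median are thus a description of these genes. Tox was at 314, 260.0, and 258 CPM in the spleen-labelled libraries and 38.7, 47.0, and 46.5 CPM in the kidney-labelled libraries (log2 fold change −2.65 ± 0.12 SE, edgeR adjusted p = 1.3e-12). The nuclear receptors of the Nr4a family, which respond to T cell receptor signals, differed more, Nr4a2 with 965, 524, and 581 CPM in the spleen-labelled libraries and 7.67, 17.9, and 13.5 CPM in the kidney-labelled libraries (log2 fold change −5.70 ± 0.24 SE, edgeR adjusted p = 1e-12). Spleen-labelled library 1 had the highest Nr4a2 and Nr4a3 values, and both genes stayed apart from the kidney label in every library. Eomes, a factor of memory and exhausted cells, was at 26.2, 49.0, and 33.8 CPM in the spleen-labelled libraries and 24.6, 49.9, and 39.0 CPM in the kidney-labelled libraries, and the groups overlapped (log2 fold change 0.10 ± 0.21 SE, edgeR adjusted p = 0.71). Bhlhe40, a factor of cytokine-producing cells, was at 293, 214, and 231 CPM in the spleen-labelled libraries and 3.63, 9.69, and 3.90 CPM in the kidney-labelled libraries (log2 fold change −5.45 ± 0.21 SE, edgeR adjusted p = 3.5e-13), and Id2, which supports effector cells, was at 552, 498, and 535 CPM in the spleen-labelled libraries and 105, 133, and 120.1 CPM in the kidney-labelled libraries (log2 fold change −2.15 ± 0.10 SE, edgeR adjusted p = 3.1e-12). Zfp683, which encodes the residency factor Hobit, had 1 UMI under the kidney label and 139 under the spleen label, a ratio of 111 times (95% interval 19.6 to 4426). It passed the filter through the spleen label alone.

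Genes of adhesion and retention, not all of them particular to resident cells, were mostly higher under the spleen label. These were 9 of 11 tested, with 2 higher under the kidney label and a median log2 fold change of −2.20. Itga1, the collagen-binding integrin chain, was at 278, 206, and 208 CPM in the spleen-labelled libraries and 3.63, 6.10, and 0.78 CPM in the kidney-labelled libraries (65.9-fold, log2 fold change −6.16 ± 0.26 SE, edgeR adjusted p = 8.8e-13). Itga1 passed the filter through the spleen label alone and had to differ. Itgae, or CD103, which binds E-cadherin of epithelium, was at 249, 201, and 186 CPM in the spleen-labelled libraries and 25.8, 20.1, and 27.6 CPM in the kidney-labelled libraries (log2 fold change −3.10 ± 0.14 SE, edgeR adjusted p = 2e-12). Rgs1, which dampens chemokine receptor signals, was at 1872, 1541, and 1757 CPM in the spleen-labelled libraries and 42.4, 71.8, and 53.6 CPM in the kidney-labelled libraries (log2 fold change −4.94 ± 0.14 SE, edgeR adjusted p = 5.8e-15). In the other direction, Cd69, an activation and retention marker, was at 345, 361, and 255 CPM in the kidney-labelled libraries and 234, 189, and 195 CPM in the spleen-labelled libraries (log2 fold change 0.63 ± 0.12 SE, edgeR adjusted p = 0.00022), and Itgb7, the partner chain of Itgae in CD103 integrin, was at 144, 169, and 148 CPM in the kidney-labelled libraries and 90.2, 93.9, and 85.0 CPM in the spleen-labelled libraries (log2 fold change 0.78 ± 0.10 SE, edgeR adjusted p = 2.5e-06). Both of these were higher in every kidney-labelled library. Of 8 listed receptors for chemokines or sphingosine phosphate 7 were tested, 5 were higher under the spleen label, 1 under the kidney label, and 1 was not called. Cxcr6, whose ligand is made in tissues, was at 655, 551, and 614 CPM in the spleen-labelled libraries and 42.8, 40.2, and 29.1 CPM in the kidney-labelled libraries (log2 fold change −4.04 ± 0.13 SE, edgeR adjusted p = 2.3e-14). S1pr4, a sphingosine phosphate receptor, was the gene of this list higher under the kidney label (79.6 ± 5.87 against 42.6 ± 10.8 CPM, mean ± SD, n = 3 each). The chemokine receptors Ccr7 and Ccr9, counted with the naive genes, were also higher under the kidney label. Ccr9 was at 66.0 ± 26.8 against 2.71 ± 1.38 CPM.

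**Figure D3:**
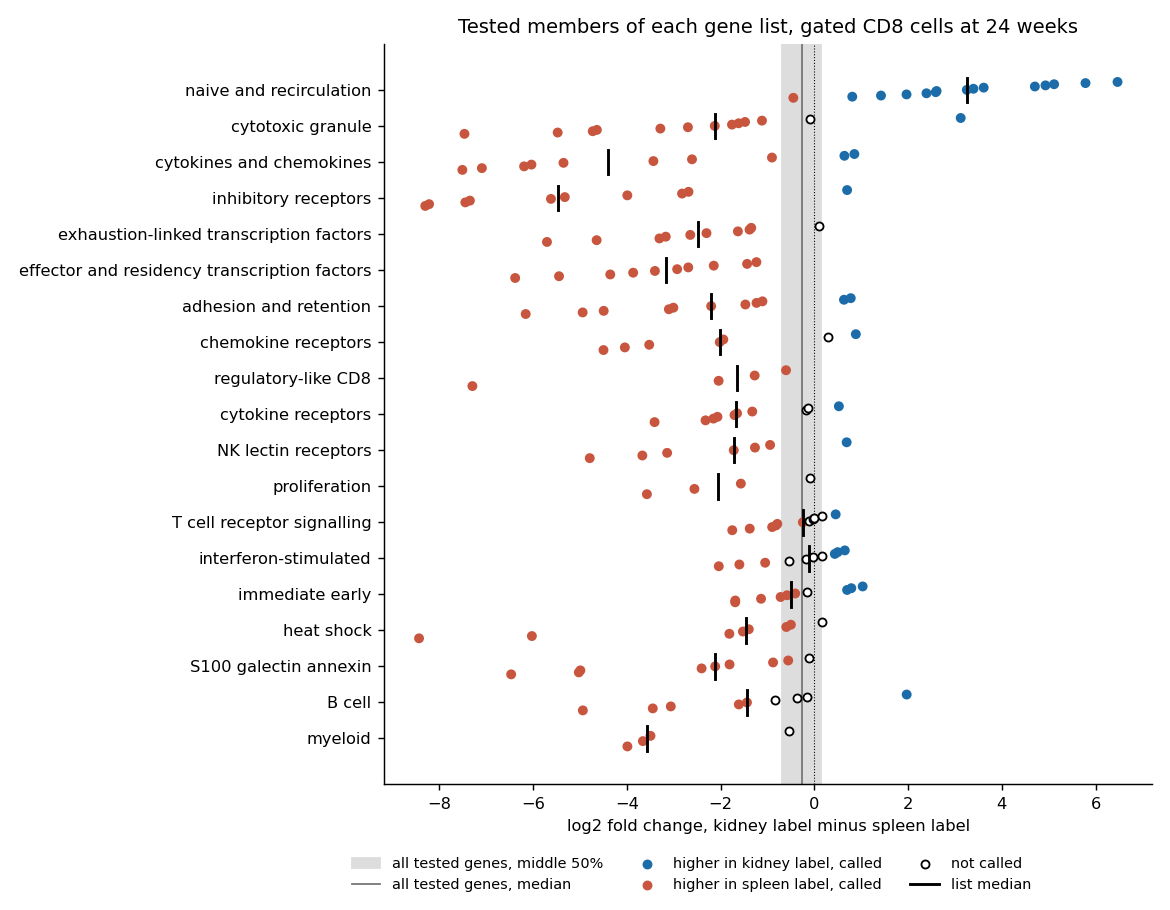
Log2 fold change (kidney label minus spleen label) of the tested members of 19 gene lists with at least 4 tested members, each point 1 gene, filled when called. The black bar is the list median, and the gray band and line are the middle 50% and the median (−0.26) of all 9623 tested genes. The naive list has its median at 3.25 and the inhibitory receptor list at −5.47.

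The study follows CD8+ T cells with regulatory features by Fgl2 and Il2rb, and the list of 4 genes used for them was chosen in the study on these samples, so its direction is not independent evidence. All 4 were higher under the spleen label, with a median log2 fold change of −1.66. Fgl2, a secreted fibrinogen-like protein that inhibits immune cells, was at 328, 265, and 303 CPM in the spleen-labelled libraries and 1.21, 3.23, and 1.30 CPM in the kidney-labelled libraries (156-fold, log2 fold change −7.29 ± 0.20 SE, edgeR adjusted p = 2.8e-15). Fgl2 passed the filter through the spleen label alone and had to differ. Il2rb, the beta chain of the IL-2 and IL-15 receptors, was at 370.1, 333, and 395 CPM in the spleen-labelled libraries and 75.9, 86.8, and 102 CPM in the kidney-labelled libraries (log2 fold change −2.04 ± 0.11 SE, edgeR adjusted p = 2.7e-11). Bcl2, a survival gene, and Btg1, an antiproliferative gene, differed by −1.27 and −0.60 on the log2 scale (edgeR adjusted p = 6.6e-09 and 1.3e-05). Among 10 tested cytokine receptors, 7 were higher under the spleen label, 1 under the kidney label, and 2 were not called. Ifngr1, a receptor chain for interferon gamma, was at 625, 497, and 571 CPM in the spleen-labelled libraries and 81.5, 131, and 124 CPM in the kidney-labelled libraries (log2 fold change −2.32 ± 0.14 SE, edgeR adjusted p = 8e-11). The gene higher under the kidney label was Il18r1, the IL-18 receptor, at 45.6, 47.0, and 44.5 CPM in the kidney-labelled libraries and 30.6, 37.4, and 28.1 CPM in the spleen-labelled libraries (log2 fold change 0.52 ± 0.13 SE, edgeR adjusted p = 0.0022), a call that was lost when each cell was thinned to 1000 UMIs (adjusted p = 0.14). Of 7 tested lectin receptors shared with natural killer (NK) cells, 6 were higher under the spleen label, led by Klrc1, an NKG2A chain that inhibits on binding Qa-1, at 237, 194, and 226 CPM in the spleen-labelled libraries and 5.65, 9.69, and 8.06 CPM in the kidney-labelled libraries (log2 fold change −4.79 ± 0.15 SE, edgeR adjusted p = 2.3e-14). Klra7, a receptor of the Ly49 family, was at 14.1, 12.9, and 11.7 CPM in the kidney-labelled libraries and 8.80, 9.92, and 5.25 CPM in the spleen-labelled libraries (log2 fold change 0.69 ± 0.24 SE, edgeR adjusted p = 0.019), not called without kidney-labelled library 1 (adjusted p = 0.061) or spleen-labelled library 3 (0.10).

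Receptor signalling and interferon genes had list medians near that of all genes. Of 11 genes of the T cell receptor complex and its signalling, 6 were higher under the spleen label, 1 under the kidney label, and 4 were not called, with a median log2 fold change of −0.25, close to that of all genes. Under TMM scaling 5 were higher under the spleen label and 4 under the kidney label. Cd3g and Cd3e, chains of the receptor complex, were at 2497 ± 78.3 and 948 ± 84.5 CPM under the spleen label and 742 ± 47.3 and 365 ± 9.08 CPM under the kidney label (mean ± SD, n = 3 each), while Cd247, the zeta chain, was higher under the kidney label (131 ± 11.1 against 95.2 ± 7.40 CPM). Of 10 interferon-stimulated genes, 3 were higher under each label, and the median was −0.10. Isg15, a ubiquitin-like protein induced by type I interferon, was at 136, 115, and 119 CPM in the spleen-labelled libraries and 22.2, 22.6, and 42.4 CPM in the kidney-labelled libraries (log2 fold change −2.04 ± 0.17 SE, edgeR adjusted p = 1.1e-08). Of 10 proliferation genes only 4 passed the filter, and 3 of these were higher under the spleen label. A gene that passed the filter through the spleen label alone had to differ, so the count is a description of these 4 genes and not of the list. Mki67, the Ki-67 antigen, was at 11.7, 10.3, and 6.56 CPM in the spleen-labelled libraries and 1.21, 0.359, and 0.78 CPM in the kidney-labelled libraries (log2 fold change −3.57 ± 0.42 SE, edgeR adjusted p = 1e-06). Calcium-binding S100 proteins, galectins, and annexins, which effector and memory T cells raise, were higher under the spleen label for 8 of 9 tested genes. S100a4 was at 1767, 1519, and 1664 CPM in the spleen-labelled libraries and 25.4, 24.0, and 9.10 CPM in the kidney-labelled libraries (84.5-fold, log2 fold change −6.47 ± 0.21 SE, edgeR adjusted p = 2.3e-14), and Lgals3, galectin-3, was at 116, 99.2, and 121 CPM in the spleen-labelled libraries and 3.63, 5.38, and 1.82 CPM in the kidney-labelled libraries (log2 fold change −5.02 ± 0.20 SE, edgeR adjusted p = 5.7e-13). Lgals3 passed the filter through the spleen label alone and had to differ.

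Chaperones and immediate early genes, which respond to heat, handling, and enzymatic digestion, also differed. Of 8 heat shock genes tested, 7 were higher under the spleen label, or 5 with TMM scaling, which called 1 higher under the kidney label. Hspa1a, an inducible heat shock protein, was at 435, 482, and 713 CPM in the spleen-labelled libraries and 2.42, 0.359, and 1.82 CPM in the kidney-labelled libraries (354-fold, log2 fold change −8.43 ± 0.28 SE, edgeR adjusted p = 3.2e-14). Its neighbor Hspa1b was at 447, 473, and 592 CPM in the spleen-labelled libraries and 18.6, 1.79, and 4.68 CPM in the kidney-labelled libraries (log2 fold change −6.03 ± 0.31 SE, edgeR adjusted p = 1e-11). Dnajb1, a cochaperone, was at 320.2, 303, and 376 CPM in the spleen-labelled libraries and 64.6, 95.1, and 121 CPM in the kidney-labelled libraries (log2 fold change −1.81 ± 0.15 SE, edgeR adjusted p = 1.2e-08). The 2 Hspa1 genes are near-identical copies, so reads may be split between them and their separate values are uncertain. Both passed the filter through the spleen label alone and had to differ. The 250 bases before their start sites on chromosome 17 are shown from RefSeq (GRCm38.p6, minus strand, chr17:34972157-34972406 for Hspa1a and chr17:34959239-34959488 for Hspa1b), because both genes moved together. Capitals mark GAANNTTC, a pair of heat shock elements to which the heat shock factor binds and which reads the same on both strands.
Hspa1a: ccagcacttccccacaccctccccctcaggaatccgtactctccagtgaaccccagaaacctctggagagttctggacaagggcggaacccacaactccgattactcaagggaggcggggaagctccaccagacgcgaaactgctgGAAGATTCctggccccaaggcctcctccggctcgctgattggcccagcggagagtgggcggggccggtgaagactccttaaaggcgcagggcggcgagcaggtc
Hspa1b: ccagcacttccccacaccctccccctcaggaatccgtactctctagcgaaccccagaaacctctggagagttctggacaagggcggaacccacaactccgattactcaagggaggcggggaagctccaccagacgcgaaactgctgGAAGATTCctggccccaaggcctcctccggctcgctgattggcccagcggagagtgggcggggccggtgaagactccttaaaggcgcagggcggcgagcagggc
The 2 windows shared 247 of 250 bases and held 1 match each, 104 bases before the start site, and 6.69% of all 32851 promoter windows held one. No match was found in the first listed window of Dnajb1. At 3 weeks Hspa1a stood at 493 to 777 CPM in kidney libraries, with 2 UMIs in all 5 spleen libraries together, and at 1 week at 149 to 246 CPM in kidney libraries, with 0 UMIs in the 3 spleen libraries. Of the immediate early genes, 6 of 10 were higher under the spleen label and 3 under the kidney label, against 40.2% and 14.0% of all tested genes. With TMM scaling 5 and 3 were. Btg2 was at 949, 777, and 797 CPM in the spleen-labelled libraries and 285, 244, and 254 CPM in the kidney-labelled libraries (log2 fold change −1.69 ± 0.10 SE, edgeR adjusted p = 5.5e-11), whereas Fos was at 410.0, 383, and 175 CPM in the kidney-labelled libraries and 205, 127, and 136 CPM in the spleen-labelled libraries (log2 fold change 1.03 ± 0.22 SE, edgeR adjusted p = 0.00077), with kidney-labelled library 3 inside the range of the spleen-labelled libraries. The part of tissue handling in these values was not tested.

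Markers of other cells in the gated CD8 cells were not alike either. The myeloid list stood at 8.32 to 18.7 CPM in the kidney-labelled and 118 to 149 CPM in the spleen-labelled libraries. Most of this sum was Fcer1g, an adaptor of Fc receptors that T cells can also express, with 66 of 118 UMIs under the kidney label and 1067 of 1492 under the spleen label. Under the kidney label Fcer1g was at 35.8 ± 10.5 CPM in cells with a Ccl5 UMI and 0.51 ± 0.884 CPM in cells without one (mean ± SD, n = 3). The other 9 genes summed to 4.04 to 9.33 CPM under the kidney label and 23.3 to 74.8 CPM under the spleen label. Only 4 of the 10 genes passed the filter, some of them through the spleen label alone, so their calls do not describe the list. C1qa and C1qb, chains of complement C1q that macrophages make, had 0 and 1 UMIs under the kidney label and 43 and 48 UMIs under the spleen label, whereas S100a8, a neutrophil gene, had 8 and 4 UMIs. Apoe, which macrophages also express, was at 8.58, 40.4, and 8.66 CPM in the spleen-labelled libraries and 0.807, 1.79, and 0.78 CPM in the kidney-labelled libraries (log2 fold change −3.99 ± 0.71 SE, edgeR adjusted p = 0.00012), with spleen-labelled library 2 far above the others, and it was not called over all cells (adjusted p = 0.061). The B cell list stood at 317 to 441 and 498 to 1930 CPM, where spleen-labelled library 1 was the lowest of its label. The gate had removed every cell with a Cd79a UMI. Before it, such cells were 4.61% to 7.92% of a kidney-labelled library and 1.93% to 3.79% of a spleen-labelled library, the opposite order. Igkc, the kappa light chain, was at 237, 1207, and 1147 CPM in the spleen-labelled libraries and 67.4, 117, and 54.6 CPM in the kidney-labelled libraries (log2 fold change −3.45 ± 0.41 SE, edgeR adjusted p = 1.2e-06), and Jchain, a plasma cell gene, was at 24.9, 166, and 173 CPM in the spleen-labelled libraries and 4.44, 5.38, and 2.34 CPM in the kidney-labelled libraries. By contrast Cd79b, a chain of the B cell receptor, was higher under the kidney label (log2 fold change 1.97 ± 0.31 SE, edgeR adjusted p = 2.5e-05). Pecam1, which endothelium and also naive T cells express, was at 51.4 ± 4.47 against 9.60 ± 1.59 CPM (mean ± SD, n = 3 each), whereas the endothelial genes Kdr and Plvap had 0 UMIs under the kidney label and 1 and 2 under the spleen label, and Egfl7, also endothelial, had 7 and 2 UMIs. The NK cell list ranged over 32.7 to 61.4 and 45.7 to 73.4 CPM, the list for CD4 and gamma-delta T cells over 27.0 to 43.4 and 27.3 to 42.5 CPM, and the erythroid list over 0 to 0.26 and 1.31 to 2.86 CPM. The part of these cells in the other differences was not tested.

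Detection of single genes was compared cell by cell. Since cells differed in depth, 1000 UMIs were drawn from every gated cell, which left out 0 kidney-labelled and 69 spleen-labelled cells. With 3 libraries for each label the exact permutation test cannot give less than p = 0.1, two-sided, and it gave p = 0.1 for each share of this paragraph. A Lef1 UMI was found in 37.2%, 41.2%, and 41.5% of the cells in the kidney-labelled libraries and 1.25%, 1.31%, and 1.73% in the spleen-labelled libraries. A Ccl5 UMI was found in 13.4%, 16.1%, and 10.5% of the cells in the kidney-labelled libraries and 92.7%, 94.7%, and 93.2% in the spleen-labelled libraries, and a Pdcd1 UMI in 0%, 0.168%, and 0.162% of the cells in the kidney-labelled libraries and 36.2%, 31.2%, and 34.4% in the spleen-labelled libraries. Without thinning, the Pdcd1 shares were 0.395%, 0.503%, and 0.808% under the kidney label and 64.5%, 53.6%, and 60.3% under the spleen label. The 2 sets of libraries thus lay far apart for all 3 genes. Cells with UMIs of both Fgl2 and Il2rb were 0.164% ± 0.162 of the kidney-labelled and 6.65% ± 1.03 of the spleen-labelled cells (mean ± SD, n = 3 each). Cells with both integrin chains Itgae and Itga1 were 4.90% ± 1.15 under the spleen label and 0 of 1722 under the kidney label, which allows a share of up to 0.174% of cells with these UMIs. The limit covers counting error only and not the spread between libraries. After thinning a kidney-labelled cell held a median of 453 to 466 genes and a spleen-labelled cell 535 to 559 genes. Free RNA can give a cell a UMI of a gene that it does not express. No cell type lacking these genes is in the gated data, so the background of these shares was not measured here.

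The cells with a Ccl5 UMI were compared on their own, to see how far the labels differed among cells with this chemokine of antigen-experienced CD8+ T cells. They were 90, 121, and 92 cells of the kidney-labelled libraries (14.9% to 20.3%) and 1456, 1134, and 1247 cells of the spleen-labelled libraries (95.6% to 96.5%), without thinning. Their median depth was 5072 to 7591 UMIs under the kidney label and 2375 to 2718 UMIs under the spleen label. Kidney-labelled cells without a Ccl5 UMI had medians of 4347.5 to 5843 UMIs. How many of the cells held Ccl5 only as free RNA or as doublets was not tested. Of 8555 genes tested, 37.2% were called, 751 (8.78%) higher under the kidney label and 2429 (28.4%) higher under the spleen label (1270 and 1378 with TMM scaling). All 15 naive genes were tested, 14 of them were higher under the kidney label in these cells too, and 9 of 10 inhibitory receptors were higher under the spleen label. Some of these receptors, such as Havcr2 and Tigit, passed the filter through the spleen label alone and had to differ. Pdcd1 was at 5.91 ± 2.64 CPM in the kidney-labelled and 469 ± 34.9 CPM in the spleen-labelled libraries (mean ± SD, n = 3 each; log2 fold change −6.25, edgeR adjusted p = 7e-15), and Lef1 was at 265 ± 22.2 CPM in the kidney-labelled and 15.7 ± 2.95 CPM in the spleen-labelled libraries (log2 fold change 4.09, edgeR adjusted p = 2.9e-14). Gzmb and Itga1, the granzyme and the integrin, differed by −5.32 and −3.88 on the log2 scale, against −7.46 and −6.16 over all gated cells. Itgae and Hspa1a differed more in these cells, by −4.54 and −8.90 against −3.10 and −8.43. Of 171 list members tested in both, 115 had a smaller absolute log2 fold change in the cells with a Ccl5 UMI and 157 had the same sign. The same counts were not made over all genes, so a background for them is lacking. The 2 comparisons share libraries and cells.

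Among the cells with a Ccl5 UMI, 3 of 7 tested NK lectin receptors were higher under the kidney label and 4, Klrc1, Klrc2, Klrd1, and Klra9, under the spleen label (log2 fold change −2.52, −0.90, −0.44, and −1.42). Klrd1 was not called there with TMM scaling (adjusted p = 0.25). Of the granule genes 1 of 13 was higher under the kidney label and 10 under the spleen label. Gzmm was at 50.3 ± 8.95 CPM in the kidney-labelled and 1.22 ± 0.146 CPM in the spleen-labelled libraries (mean ± SD, n = 3 each; log2 fold change 5.29, edgeR adjusted p = 3.1e-11). Klra7 was at 64.7 ± 4.77 CPM in the kidney-labelled and 8.26 ± 2.85 CPM in the spleen-labelled libraries (log2 fold change 2.97, edgeR adjusted p = 3.5e-09), and Eomes, not called over all gated cells, was at 88.3 ± 32.8 CPM in the kidney-labelled and 38.3 ± 11.9 CPM in the spleen-labelled libraries (log2 fold change 1.25, edgeR adjusted p = 0.00024). Il18r1 was at 115 ± 19.5 CPM in the kidney-labelled and 31.9 ± 4.60 CPM in the spleen-labelled libraries (log2 fold change 1.86, edgeR adjusted p = 1.5e-08). These 4 genes did not overlap between the labels in these cells. Klrk1, the activating receptor NKG2D, changed sign. It was lower under the kidney label over all gated cells (log2 fold change −1.27 ± 0.14 SE, edgeR adjusted p = 5.7e-07, not called over all cells of the matrices, adjusted p = 0.16) and higher there among cells with a Ccl5 UMI, at means of 149.7 against 76.7 CPM (log2 fold change 0.95, edgeR adjusted p = 2.7e-05). Klre1, a lectin of the same receptor cluster, also changed sign, with log2 differences of −1.72 and 0.53, but the second was not called without kidney-labelled library 1 or 3 or spleen-labelled library 2 or 3 (edgeR adjusted p = 0.069 to 0.21). Il2rb was in these cells at 275 ± 47.1 CPM in the kidney-labelled and 376 ± 35.2 CPM in the spleen-labelled libraries (log2 fold change −0.45, edgeR adjusted p = 0.0078), and was not called with TMM scaling (adjusted p = 0.30) or without kidney-labelled library 1 (0.069). Prf1 was at 71.7 ± 26.4 CPM in the kidney-labelled and 95.4 ± 10.6 CPM in the spleen-labelled libraries (log2 fold change −0.38, edgeR adjusted p = 0.12), and was called without kidney-labelled library 3 (log2 fold change −0.71, adjusted p = 0.016). These genes and this description were chosen after their values were seen, from the lists.

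**Figure D4:**
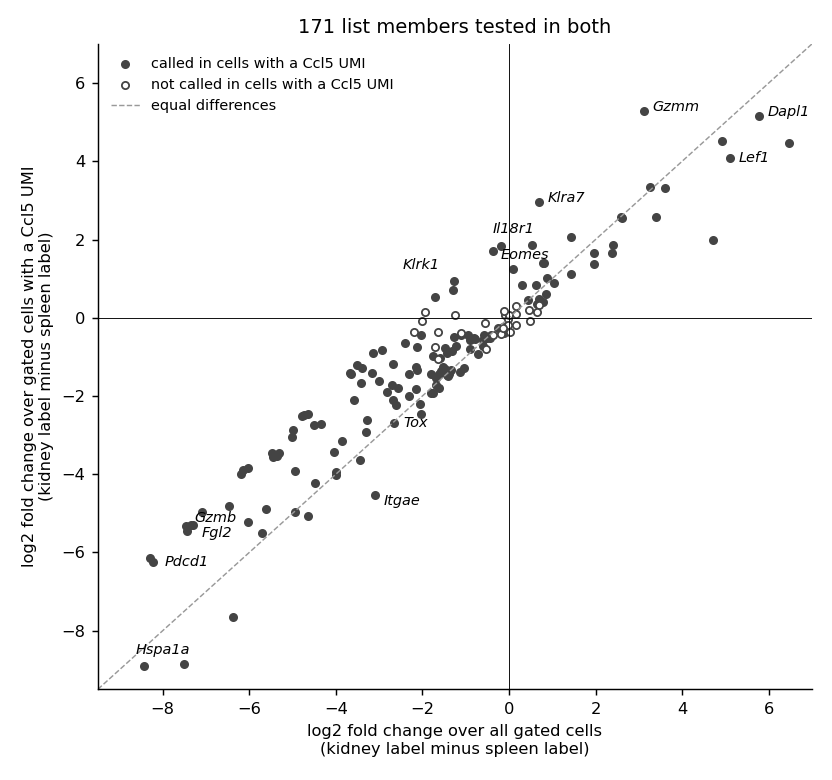
Log2 fold change (kidney label minus spleen label) of 171 list members over all gated cells (x axis) and over gated cells with a Ccl5 UMI (y axis), each point 1 gene, filled when called in the latter. The dashed line marks equal differences. Gzmm, Klra7, Eomes, Klrk1, and Il18r1 lie above 0 on the y axis. Pdcd1, Gzmb, and Fgl2 lie nearer to 0 there than on the x axis, and Itgae and Hspa1a lie farther from 0.

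The cells without a Ccl5 UMI were few under the spleen label, 67, 41, and 54 cells, against 416, 476, and 527 under the kidney label. Of 7181 genes tested, 21.0% were called, 384 (5.35%) higher under the kidney label and 1121 (15.6%) under the spleen label (683 and 739 with TMM scaling). Without kidney-labelled library 1, 2, or 3 the filter left 2540 to 2555 genes, of which 39.2 to 41.6% were called, and without spleen-labelled library 1, 2, or 3 it left 8665 to 8832 genes, of which 11.7 to 14.4% were called, so this share rests on which genes were tested. The counts were 996 to 1259, the fewest without kidney-labelled library 2. Klf2 was at 901 against 129 CPM (means of 3 libraries, kidney label against spleen label), Dapl1 at 479 against 21.4 CPM, Tox at 44.1 against 356 CPM, and S100a4 at 8.15 against 1326 CPM, all called (edgeR adjusted p at most 7.1e-13). Naive genes were called higher under the kidney label for 13 of 15 in these cells, and inhibitory receptors higher under the spleen label for 6 of 7 tested. Some of these receptors, such as Pdcd1, Lag3, and Cd244a, passed the filter through the spleen label alone and had to differ.

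The same contrast at the earlier times ran in the opposite direction. In 1 fit over all 22 libraries of accepted mice, 10785 genes were tested, and the difference between kidney and spleen labels changed between 3 and 24 weeks for 67.9% of them (17.5% toward the kidney label and 50.4% toward the spleen label) and between 1 and 24 weeks for 60.1% (17.4% and 42.7%). With TMM scaling these splits were near even, 3329 and 3415 genes for 3 weeks and 2865 and 3276 genes for 1 week. The common fit held no term for the mouse, so kidney and spleen libraries entered it as independent. A pairing of libraries was not examined at 1 and 3 weeks. Of 4753 genes called at both 24 and 3 weeks, 4719 (99.3%) had opposite directions, and of 3458 called at both 24 and 1 weeks 3175 (91.8%) did. These shares were computed with plain library totals only. The median log2 difference of all genes there was −0.27 at 24 weeks, 0.30 at 3 weeks, and 0.14 at 1 week. At 3 weeks 63.5% of genes were called, 47.6% higher in kidney and 15.8% higher in spleen, and at 1 week 50.9% were called, 33.5% and 17.5%. With TMM scaling 3083 genes were higher in kidney and 2976 in spleen at 3 weeks, and 3046 and 2393 at 1 week. At 3 weeks 14 of 15 naive genes were higher in spleen and none in kidney, and all 10 factors of effector and resident cells and 9 of 10 inhibitory receptors were higher in kidney. Lef1 stood at 4.42 to 13.3 CPM in the 3-week kidney libraries and 409 to 466 CPM in the 3-week spleen libraries, where the 24-week spleen label had 11.9 to 17.8 CPM and the 24-week kidney label 504 to 532 CPM. Its log2 difference was −2.95 at 1 week, −5.79 at 3 weeks, and 5.12 at 24 weeks, and the difference between 24 and 3 weeks was 10.90 ± 0.28 SE (edgeR adjusted p = 1.3e-23). Pdcd1 stood at 386 to 627 CPM in the 3-week kidney libraries and 0 to 2.30 CPM in the 3-week spleen libraries, and its log2 difference of 5.09 at 1 week and 8.60 at 3 weeks was −8.23 at 24 weeks (24 against 3 weeks, −16.84 ± 0.38 SE, edgeR adjusted p = 5.4e-25). For Rgs1 the 3 differences were 2.72, 4.18, and −4.94, and for Fgl2 they were 3.45, 7.21, and −7.31. The share of cells with a Ccl5 UMI after thinning was 94.8% to 96.4% in 3-week kidney, 21.0% to 26.5% in 3-week spleen, 10.5% to 16.1% under the 24-week kidney label, and 92.7% to 94.7% under the 24-week spleen label.

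**Figure D5:**
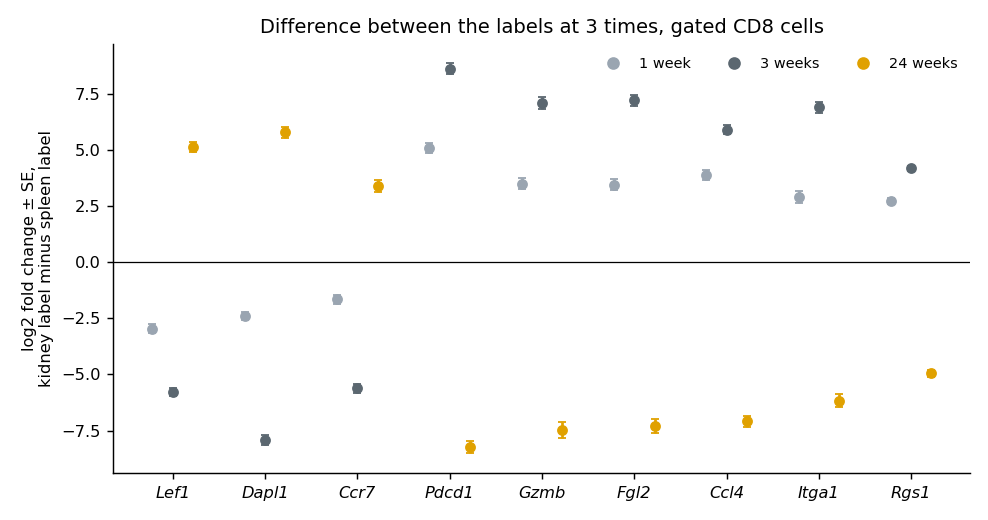
Log2 fold change of 9 genes between kidney and spleen labels at 1, 3, and 24 weeks, from 1 edgeR fit over 22 libraries, with bars of 1 SE. The SE is taken from the F statistic and can be too small for genes with few UMIs under 1 label, such as Pdcd1. Lef1, Dapl1, and Ccr7 are below 0 at 1 and 3 weeks and above 0 at 24 weeks, and the other 6 genes show the reverse.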

How the data were processed

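Single-cell RNA-seq libraries were made by the authors with a 10x 3′ kit. The deposited matrices hold raw UMI counts per gene and cell, which the authors split by cell type. The submitters' processing notes name Cell Ranger and mm10, whose versions are not given in the sources used here. How doublets were removed was not checked and no doublet caller was run. Library tags in the cell barcodes gave the replicates. UMI counts of gated cells were summed per library, filtered with edgeR's filter on low counts, and tested with the quasi-likelihood method of edgeR 4.0.16 (R 4.3.3) on plain library totals, with the label as the only term and an adjusted p of at most 0.05. Sums and shares were computed in Python 3.11.15, the latter after drawing 1000 UMIs per cell. Shares were compared by two-sided exact permutation.

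On simulated data of 9435 genes for the comparison at 24 weeks, 28 of 55 genes changed 1.5-fold, 67 of 76 changed 2-fold, and 68 of 69 changed 4-fold were recovered, with 9 false calls. The simulation changed far fewer genes than were called in the data, in random directions, and held no shift of the bulk of genes. Its false calls therefore do not cover errors of scaling. Total UMIs per library are given in the text and limit its precision. The genes named are list members and the 12 most changed called genes in each direction at or above 100 CPM in the higher label without overlap. The members, the 24 gene lists, and the tests were chosen with earlier results of these data known. Alternatives were TMM scaling, DESeq2 1.42.0, no filter, other gates and cell filters, thinning, totals without variable gene classes, a replicate block, and leaving out each library. Other tissues, cell types, and transplant models were not used. Values of some single genes are not reported here.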

Additional observations from a re-analysis of the deposited data

Results flagged for a closer look

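The difference between the kidney and spleen labels differed between times by the interaction term of edgeR for 7324 of 10785 genes at 24 against 3 weeks and for 6486 genes at 24 against 1 week. Between 24 and 3 weeks the log2 difference (kidney label minus spleen label) of the naive genes was higher by 10.90 for Lef1 and 13.69 for Dapl1. For Pdcd1, Gzmb, Fgl2, and Rgs1 the change was −16.84, −14.56, −14.52, and −9.12. Between 24 and 1 week the changes were 8.07 for Lef1, 8.17 for Dapl1, −13.32 for Pdcd1, −10.97 for Gzmb, −10.76 for Fgl2, and −7.66 for Rgs1. Kidney parenchyma RNA also stood higher under the spleen label at 24 weeks and higher in kidney at 3 weeks. All barcodes of the 24-week kidney-labelled CD8 libraries were in the CD45+ table with the same label.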

How the results depend on the processing

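At 24 weeks 5210 genes were called. With each cell thinned to 1000 UMIs, which leaves fewer UMIs and 6798 genes tested, 2679 were called (627 higher under the kidney label and 2052 under the spleen label), and with DESeq2 3803 (1698 and 2105). Without any 1 library the count was 4673 to 5179. Among cells with a Ccl5 UMI it was 2464 to 2819 against 3180, and among cells without one 996 to 1259 against 1505, with fewer samples in each. Of 168 results on single genes checked, 151 kept direction and call under every alternative in which the gene was tested, 15 changed call, and 2 changed sign. A gene that the filter of an alternative left out was not counted as changed. Results in cells with or without a Ccl5 UMI and between times had fewer alternatives. Eomes, which was not called (0.10), was at −0.13 over all cells, −0.32 in cells with both Cd8 chains, and −0.12 to 0.36 when single libraries were left out. Cd3d, which was called (−0.25), was at 0.017 with TMM scaling, 0.13 without ribosomal, mitochondrial, antibody, and receptor genes, and −0.29 to −0.20 when single libraries were left out. The cause was not tested. Few UMIs of effector genes under the kidney label, and only 41 to 67 cells without a Ccl5 UMI in a spleen-labelled library, limit those folds.

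With the tag number as a replicate block, 5268 genes were called (1356 and 3912), 3173 among cells with a Ccl5 UMI (753 and 2420), and 1386 among cells without one (344 and 1042). The latter 2 fits, and the parenchyma sums over all cells and over genes in all tables (ratio 6.03 against 10.7), were chosen after seeing the data. Deviations of libraries with the same number correlated with r = 0.052, 0.046, and 0.190 over 4843 genes, and 5 of 6 libraries correlated best with their own number. With 2 of the 3 correlations under 0.1, a pairing was not shown.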
